A study of Mus musculus with 12 samples.

Results

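Among the 6 libraries made from mouse heart organoids, 3 carried far more RNA of liver and yolk sac type endoderm than the other 3, and the account below describes what else differed between these 2 sets. The sets were chosen from measured values. For each organoid library the CPM values, a gene's count divided by the library total and multiplied by 1000000, of Afp, Apoa1, Ttr, Alb and Apob were summed, and the 3 libraries with the highest sums were called endoderm-rich and the other 3 endoderm-poor. They make up 6 of the 12 libraries of the series. The endoderm-rich libraries were atrium-like replicate 1 with a sum of 20404 CPM, which is 2.04% of its fragments, ventricle-like replicate 3 with 8287 CPM and atrium-like replicate 3 with 7496 CPM. The endoderm-poor libraries were atrium-like replicate 2 with 867 CPM, ventricle-like replicate 1 with 408 CPM and ventricle-like replicate 2 with 44.9 CPM. The lowest sum of the first set was thus 8.64 times the highest of the second. In the 6 libraries of embryonic hearts the sum lay between 0.657 and 7.09 CPM, below the sum of every organoid library. Single genes did not all follow, since in ventricle-like 2 Ttr made up 36.6 of the 44.9 CPM. Its Apoa1 and Apob, at 1.43 and 0.179 CPM, lay within the range of the hearts, which reached 1.87 and 1.74 CPM. Because these 5 genes made the split, they are left out of every count on the split and of every gene list below, but they remain among the genes of the test against hearts.

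The study set 2 dissected regions of heart organoids (HOs) beside the chambers of the embryonic heart. HOs are self-organizing aggregates grown from embryoid bodies of mouse embryonic stem cells (ESCs) on a laminin-entactin matrix with FGF4, with BMP4, BIO and LIF added in the later days. On day 13 of culture they were cut into an atrium-like and a ventricle-like part, with 3 libraries of each, and embryonic hearts at E11.5 (E11.5H) were cut into atria and ventricles, again with 3 libraries of each. The labels give the strain C57BL/6 for all 12 samples and name no transgene, knockout or drug that sets one group apart. The methods name ESC lines from C57BL/6 and from a hybrid with JF1, and which line gave which organoid is not stated in the labels, nor is the number of organoids behind a library. The organoid libraries held 23971258 to 29230400 fragments assigned to genes and the hearts 25943640 to 30540993. Both sets of organoid libraries contain both parts, so the split does not coincide with the labelled chambers. The balance is uneven, since the endoderm-rich set leans to atrium-like and the endoderm-poor set to ventricle-like libraries.

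Definitive endoderm and the extraembryonic endoderm of the yolk sac arise beside the cardiac mesoderm in the early embryo. Liver and yolk sac endoderm secrete apolipoproteins, fibrinogen and carrier proteins, whereas gut endoderm builds an absorptive epithelium with a brush border. Endoderm next to the heart field is known as a source of signals in cardiogenesis. In bulk libraries like these, more cells of a type and more RNA per cell cannot be told apart.

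Values below are CPM after scaling by the trimmed mean of M values (TMM), and for each gene they are given in the order atrium-like 1, atrium-like 3 and ventricle-like 3 for the endoderm-rich libraries and atrium-like 2, ventricle-like 1 and ventricle-like 2 for the endoderm-poor libraries. A log2 difference is the mean log2(CPM + 0.5) of the endoderm-rich minus that of the endoderm-poor libraries, followed by its standard error over 3 and 3 libraries. The standard error treats the libraries as separate, although same-numbered parts within a set may come from the same organoid. A gene is called apart when all 3 libraries of one set lie above all 3 of the other and the log2 difference exceeds 1. No test is attached to this contrast, since the libraries were selected on their own values. Of 15698 genes that passed the low-count filter, 1419 were apart and higher in the endoderm-rich libraries, or 9.04%, and 1699 were apart and lower, or 10.8%. The median log2 difference over all genes was -0.03, and 48.4% of the differences lay above 0.

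The counts depended on what the libraries were scaled to. When they were instead brought to an equal mean of 16 cardiomyocyte genes, 266 genes were apart and higher and 948 apart and lower, so that 21.9% of the apart genes were higher in place of 45.5%. Atrium-like 1 had the lowest cardiomyocyte level of the 6 libraries and ventricle-like 3 the highest, and both belong to the endoderm-rich set. For gene lists below whose main count exceeded 2, the count under this scaling is given where it is well below the main one. Main counts of 1 or 2 mostly stand without it, and several of them fell too. The lower genes went from 2 to 1 for cartilage and from 1 to 0 for cell cycle.

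The libraries of a set resembled each other. Over all genes but the 5, Pearson's r of log2 values was 0.905 to 0.956 between endoderm-rich libraries and 0.902 to 0.937 between endoderm-poor libraries, whereas pairs from different sets spanned 0.695 to 0.902. The upper end of the between-set range touched the within-set ranges. The highest value was that of atrium-like 3 with ventricle-like 3, parts of the same number. These are correlations across genes within 15 pairs of 6 libraries and carry no test.

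**Figure D1:**
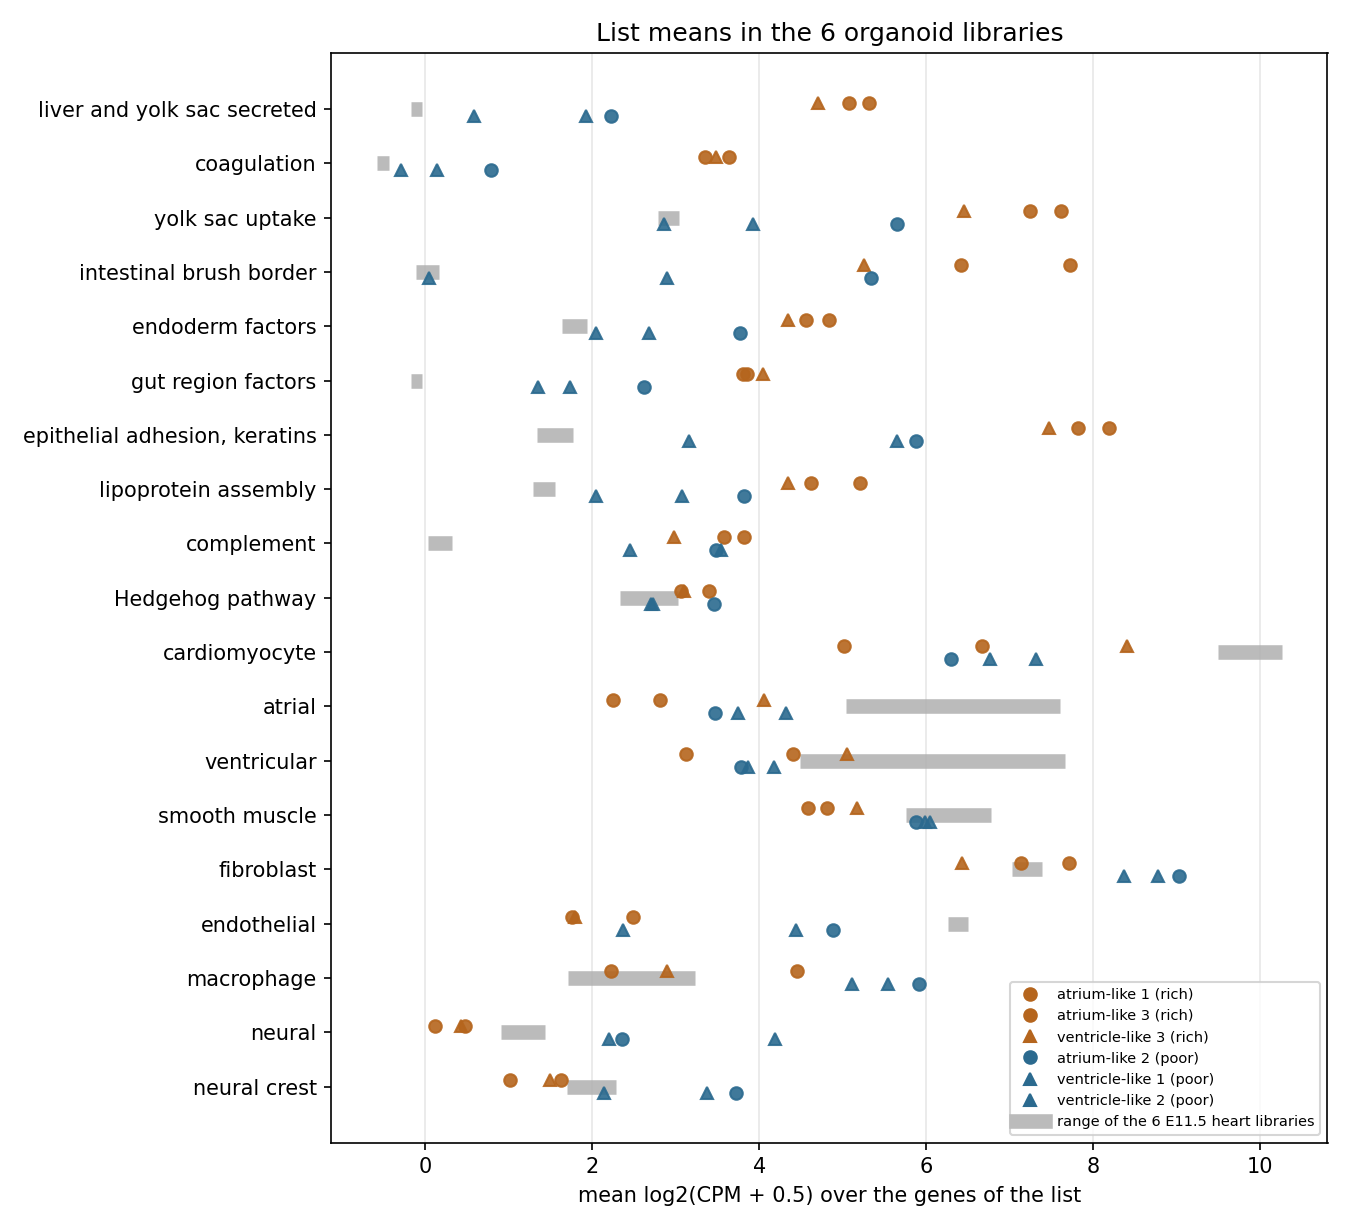
Mean log2(CPM + 0.5) over the genes of 19 lists (horizontal axis) in each organoid library; circles are atrium-like and triangles ventricle-like parts, brown endoderm-rich and blue endoderm-poor, and the grey bar spans the 6 E11.5 heart libraries. The brown points lie wholly to the right for secreted, coagulation and epithelial genes, wholly to the left for fibroblast, macrophage, smooth muscle and neural genes, and on both sides of the blue points for cardiomyocyte genes.

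Secreted proteins of liver and yolk sac were higher as a group. Of 22 such genes that passed the filter (25 listed), 17 were apart and higher and 0 lower, with a median log2 difference of 4.54, beside the 9.04% and -0.03 of all genes. The 3 fibrinogen chain genes, whose products join into the clotting protein, lie side by side on chromosome 3 of the mm10 assembly and moved together. Fga (chromosome 3, 83026153 to 83033617), the alpha chain, read 216, 166 and 206 CPM in the endoderm-rich libraries and 6.00, 0.383 and 0 CPM in the endoderm-poor libraries, the largest difference among all genes with at least 10 CPM in the higher set, at 7.10 ± 1.13 on the log2 scale. Fgb (chromosome 3, 83042246 to 83049863), the beta chain, read 392, 303 and 319 CPM against 15.3, 10.1 and 0.653 CPM, a difference of 5.86 ± 1.18. Fgg (chromosome 3, 83007724 to 83015056), the gamma chain, read 191, 175 and 142 CPM against 5.57, 5.12 and 0.424 CPM, a difference of 5.73 ± 0.90. All 3 genes kept a wide gap between the sets, and in every case ventricle-like 2 was the lowest library. In the hearts none of them exceeded 0.253 CPM.

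The promoters of the filtered genes were searched for the core letters of the forkhead motif, which FOXA factors bind and whose genes Foxa1 and Foxa3 are described below. The letters were TGTTTAC, or GTAAACA on the other strand, without mismatch, in RefSeq windows of 250 bases before to 50 bases after each gene start (GRCm38.p6), and the motif was chosen after values were seen. They were found for 48 of 1116 genes apart and higher that had a window (4.30%), for 42 of 1241 apart and lower (3.38%) and for 392 of all 12306 filtered genes with a window (3.19%), so the shares lay near each other. The lists, of few genes each, varied more. None of 9 coagulation genes with a window held the letters and 0 of 18 epithelial genes did, whereas 1 of 13 brush border genes (7.69%) and 4 of 18 secreted genes (22.2%) did. Of the 12 genes named for the largest upward differences and described below, 2 had a match, Apoa2 at chr1:171224917-171225043, plus strand, and Rbp4 at chr19:38125496-38125571, minus strand. Their matches are shown in capitals, 5′ to 3′ on the gene's strand with up to 60 bases on either side, as the sequences behind this count among the most different genes. A match describes letters only and is not a measured binding site.
Apoa2: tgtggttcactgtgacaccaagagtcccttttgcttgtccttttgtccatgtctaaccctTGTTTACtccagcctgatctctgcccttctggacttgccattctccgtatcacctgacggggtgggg
Rbp4: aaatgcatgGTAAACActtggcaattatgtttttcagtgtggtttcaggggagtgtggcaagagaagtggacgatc

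Other clotting and carrier proteins followed the fibrinogen genes. In the coagulation list 10 of 12 genes that passed the filter (15 listed) were apart and higher and 0 lower, with a median difference of 3.93, or 4.22 with the gene at 0 in one set placed at its bound of 3 counts per library. Kng1, the kininogen precursor of bradykinin, read 187, 184 and 142 CPM against 7.68, 2.82 and 0.359 CPM. F2, which encodes prothrombin, read 64.7, 97.2 and 56.4 CPM against 8.37, 3.86 and 1.37 CPM, and the sets stood apart there too, by 4.10 ± 0.69. F5 and F12 were the 2 filtered members not apart, and F5, coagulation factor V, was low in all 6 libraries with 0.0987, 0.538 and 0.282 CPM against 0.626, 0 and 1.31 CPM. F10 illustrates a gap made by several levels, with 119.7, 49.5 and 22.4 CPM against 3.99, 0 and 1.93 CPM. Among carriers, Trf, the iron carrier transferrin, was the most abundant gene of the secreted list that was apart, at 5663, 2717 and 3102 CPM in the endoderm-rich libraries and 239, 354 and 191 CPM in the endoderm-poor libraries, and its lowest endoderm-rich value was far above its highest endoderm-poor value. Rbp4, the retinol carrier, read 783, 1092 and 939 CPM against 44.8, 24.5 and 4.47 CPM, a difference of 5.71 ± 0.96. Apoa2, an apolipoprotein of high-density lipoprotein whose locus overlaps Tomm40l in the table, read 43.1, 212 and 64.1 CPM against 2.64, 1.67 and 0.261 CPM. Within the endoderm-rich set the order of libraries was not fixed, since atrium-like 3 led for Apoa2 and Igfbp1 and atrium-like 1 for Spp2.

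Igfbp1, a secreted binding protein for insulin-like growth factors made by liver, read 99.3, 391 and 134 CPM against 3.23, 4.28 and 0.261 CPM, a difference of 6.19 ± 1.02. Spp2, a secreted phosphoprotein, read 622, 186 and 229 CPM against 13.9, 7.59 and 0 CPM. Vtn, which encodes vitronectin of plasma and matrix, was at 0 in all 3 endoderm-poor libraries and at 10.8, 25.9 and 19.4 CPM in the endoderm-rich libraries. Not all secreted genes separated the sets. Apoe, an apolipoprotein also made by macrophages and mesenchyme, read 2109.9, 1852 and 1737 CPM against 1912, 1689.9 and 1343 CPM, a difference of 0.21 ± 0.17. Apoa4, an apolipoprotein of intestine and yolk sac, differed by 6.16 ± 3.21, but its value in atrium-like 2 exceeded that in ventricle-like 3, with 7645, 2225 and 518 CPM against 597, 75.8 and 0.0326 CPM. Ahsg, Hp and Itih4, further plasma proteins of liver, were also among the 5 filtered members that were not apart.

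Genes of endocytic uptake, a task of the visceral endoderm of the yolk sac, were higher as well. Of 10 such genes 8 were apart and higher and 0 lower, with a median difference of 3.84 (2 apart under scaling to cardiomyocyte genes). Cubn, the uptake receptor cubilin, read 249, 217 and 120.2 CPM against 42.8, 14.2 and 0.359 CPM. Amn, which carries cubilin to the cell surface, read 216, 90.9 and 32.6 CPM against 15.2, 2.85 and 3.98 CPM. Both were highest in atrium-like 1 and lowest in the ventricle-like 1 and 2 libraries. Lrp2, the receptor megalin that works beside cubilin, read 23.7, 53.3 and 32.8 CPM against 7.38, 0.104 and 0.653 CPM and did not pass the test of organoids against hearts described further on (edgeR adjusted p = 0.233). Ctsl and Ctsh, lysosomal proteases, were the 2 members not apart, and Ctsl read 1551, 1705 and 1082 CPM against 1220.4, 1289.9 and 876 CPM. Mamdc4, an endocytic protein of absorptive endoderm, read 312, 80.1 and 45.7 CPM against 3.33, 2.71 and 0.261 CPM with a difference of 5.64 ± 1.10. Meltf, an iron-binding protein of the transferrin family, read 183, 189 and 82.8 CPM against 4.28, 0.0348 and 0 CPM, a difference of 7.04 ± 1.14. Cyp11a1, which makes pregnenolone from cholesterol in the first step of steroid synthesis, read 364, 331 and 260.1 CPM against 8.10, 13.1 and 2.09 CPM, with endoderm-rich values close to each other.

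Genes of the intestinal brush border gave a graded picture rather than a clean split. Of 15 filtered genes (16 listed) 7 were apart and higher and 0 lower, with a median difference of 4.27, and 0 were apart under scaling to cardiomyocyte genes. Vil1, the microvillus protein villin, read 798, 229 and 138 CPM against 74.1, 25.3 and 0.228 CPM. Cdhr2, a cadherin that links microvilli, read 1015, 414 and 182 CPM against 86.2, 27.4 and 0.0326 CPM. Muc13, a membrane mucin, read 1278, 601 and 211 CPM against 97.0, 39.7 and 0.359 CPM. For these 3 genes the sets were apart, and atrium-like 1 was far above the other libraries. Fabp2, the intestinal fatty acid carrier, read 5669.6, 1463 and 379 CPM against 774, 61.6 and 2.06 CPM and was not apart, because atrium-like 2 exceeded ventricle-like 3. Lgals4, a galectin of intestinal epithelium, read 2267, 513 and 244 CPM against 274, 58.8 and 1.93 CPM and crossed in the same way. The list means showed the same order, with 7.72 in atrium-like 1, 6.41 in atrium-like 3, 5.34 in atrium-like 2, 5.25 in ventricle-like 3, 2.90 in ventricle-like 1 and 0.04 in ventricle-like 2, the last inside the range of the hearts of -0.11 to 0.17. Atrium-like 2, endoderm-poor by the rule, thus carried brush border transcripts at the level of an endoderm-rich library. Without atrium-like 2, all 15 genes were apart and higher, and without ventricle-like 3, 14 were. The median difference was 5.64 without atrium-like 2 and 2.74 without ventricle-like 2.

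Lipid handling followed in part. Among 13 filtered genes of lipoprotein assembly and lipid handling (15 listed), 5 were apart and higher and 0 lower, with a median difference of 1.13, or 1.77 without atrium-like 3 (0 apart under scaling to cardiomyocyte genes). Mttp, which loads lipid onto apolipoprotein B, read 2097, 637 and 291 CPM against 284, 63.7 and 5.39 CPM, the lowest endoderm-rich value standing only just above the highest endoderm-poor value. Dgat2, an enzyme of triglyceride synthesis, read 1509, 352 and 168 CPM against 144, 63.4 and 21.8 CPM. Fabp1, the liver and intestine fatty acid carrier, read 6399, 409.6 and 264 CPM against 454, 69.9 and 1.63 CPM and overlapped.

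Transcription factors of endoderm were higher in part. Of 19 filtered factors (20 listed) 7 were apart and higher and 0 lower, with a median difference of 1.73 (1 apart under scaling to cardiomyocyte genes). Among them were Foxa1, Foxa3, Hnf4a, Cebpa and Nr1h4. Foxa1, a pioneer factor of endoderm organs, read 41.7, 46.4 and 38.5 CPM against 6.26, 4.35 and 1.11 CPM, with the 3 endoderm-rich values close together. Foxa3, a related factor of liver and gut, read 46.8, 23.3 and 23.6 CPM against 10.9, 1.81 and 0.228 CPM. Hnf4a, a nuclear receptor that drives liver and intestinal genes, read 325, 138 and 94.9 CPM against 51.3, 11.4 and 0 CPM, so ventricle-like 2 had no count of it. Cebpa, a factor of liver and fat, read 36.6, 11.4 and 16.5 CPM against 6.16, 4.52 and 5.58 CPM, and Nr1h4, the bile acid receptor, read 106, 40.3 and 19.4 CPM against 5.93, 1.64 and 1.08 CPM.

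Other endoderm factors did not separate the sets. Foxa2, which marks early endoderm and the floor plate, read 13.2, 25.6 and 29.0 CPM against 19.5, 4.003 and 1.14 CPM, with atrium-like 2 inside the endoderm-rich range. Sox17, a factor of early endoderm and of endothelium, was highest in an endoderm-poor library, with 7.89, 75.3 and 31.7 CPM against 122, 4.56 and 3.82 CPM. Gata4 and Gata6 serve both endoderm and heart. Gata4 read 171, 189 and 184 CPM against 422, 464 and 216 CPM, lower in all 3 endoderm-rich libraries but by less than the threshold, and Gata6 read 167, 123 and 122 CPM against 144, 150.5 and 84.7 CPM and overlapped. Factors of gut regions gave 7 of 15 genes apart and higher and 1 lower, with a median difference of 2.43 (2 and 0 under scaling to cardiomyocyte genes). Cdx2, which specifies intestine, read 186, 69.9 and 45.5 CPM against 29.5, 2.54 and 0 CPM. Elf3, an epithelial factor of gut, read 493, 252 and 201 CPM against 59.8, 75.5 and 16.7 CPM. Isx, an intestinal homeobox factor, read 115, 15.9 and 12.4 CPM against 11.002, 2.02 and 0.522 CPM. Nkx2-1, a factor of lung and thyroid, stood above 1 CPM in 2 of the endoderm-rich libraries and no other, with 0, 11.3 and 35.2 CPM against 0.362, 0 and 0 CPM, and atrium-like 1, the library richest in intestinal transcripts, had none. Sox9, which also serves cartilage, heart valves and crest, was the member apart and lower, at 128, 46.1 and 39.5 CPM against 226, 168 and 211 CPM.

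**Figure D2:**
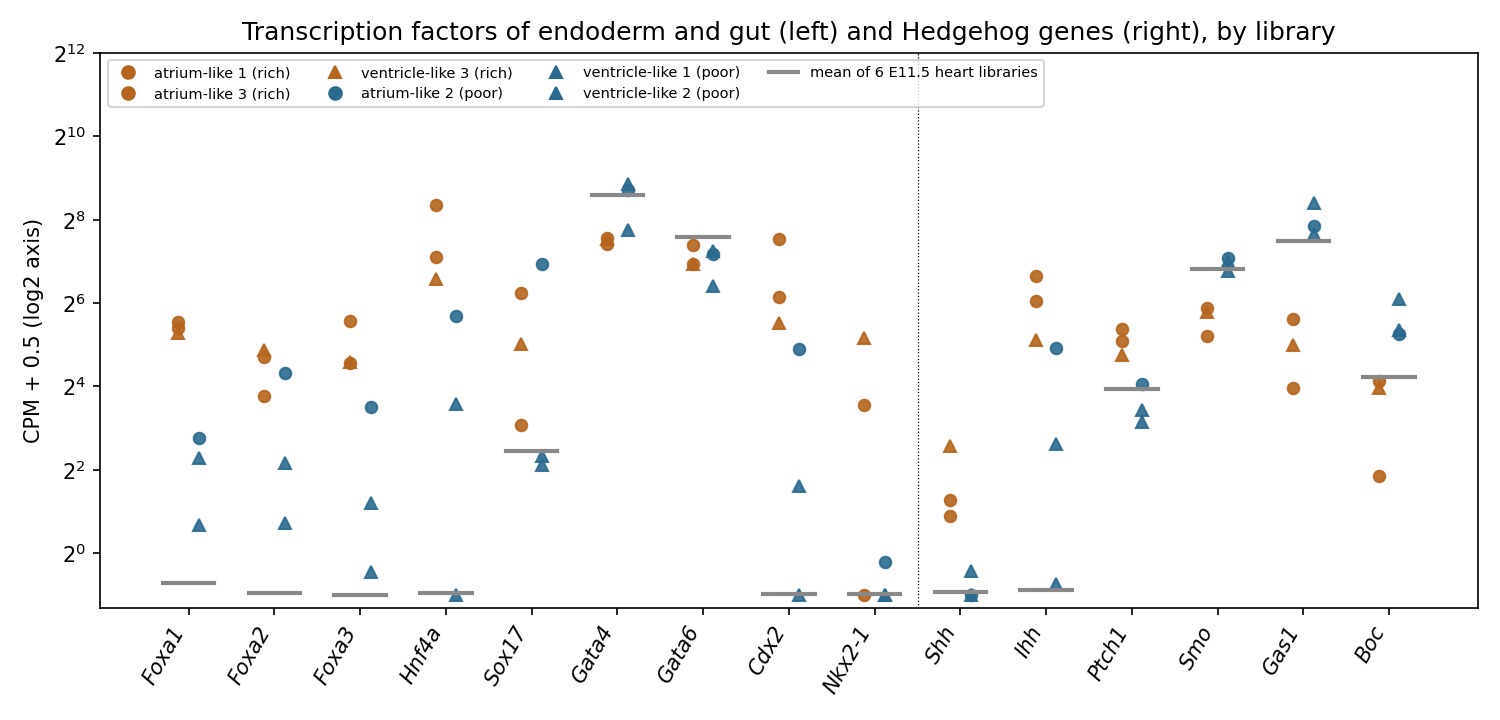
CPM + 0.5 on a log2 axis for transcription factors (left) and Hedgehog genes (right) in each organoid library, with endoderm-rich libraries in brown, endoderm-poor in blue, circles for atrium-like and triangles for ventricle-like parts, and a grey line at the mean of the 6 E11.5 heart libraries. Foxa1, Hnf4a and Cdx2 separate the sets, Foxa2 and Sox17 do not, and Smo, Gas1 and Boc lie lower in the endoderm-rich libraries while Shh, Ihh and Ptch1 lie higher.

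Epithelial genes were the most uniform group. All 22 genes of cell adhesion, tight junctions and keratins passed the filter and were apart and higher, with a median difference of 3.03, and they stayed so without any one of the 6 libraries, though the median difference was 2.004 without ventricle-like 2. Under scaling to cardiomyocyte genes 2 of them were apart. Epcam, an adhesion molecule of epithelia, read 2039, 1054 and 554 CPM against 246, 137 and 12.5 CPM. Cdh1, which encodes E-cadherin, read 609, 410.4 and 364 CPM against 131, 96.2 and 6.23 CPM. Krt8 and Krt18, the partner keratins of simple epithelia, read 2637, 2755 and 1617 CPM against 863, 644 and 639 CPM and 1969, 2237 and 1344 CPM against 516, 407 and 349.9 CPM. The keratins thus had a higher floor in the endoderm-poor libraries than Epcam or Cdh1, and their differences were 1.68 ± 0.28 and 2.11 ± 0.27, the first the smallest of the list. Cldn4, a tight junction claudin, read 249.9, 263 and 164 CPM against 34.5, 86.0 and 3.85 CPM, with ventricle-like 2 again the lowest library. Erbb3, a receptor listed among neural crest genes and also present in epithelia, went with this group at 245, 191 and 120.5 CPM against 60.02, 21.8 and 6.10 CPM.

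The Hedgehog pathway, by which gut epithelium signals to the mesenchyme around it, split by role. Of the 3 ligands, Ihh and Shh were higher in the endoderm-rich libraries and Dhh overlapped. Ihh, the ligand of gut and visceral endoderm, read 100.5, 65.8 and 34.1 CPM against 29.8, 5.64 and 0.0979 CPM. Shh, its relative in foregut and other epithelia, read 1.92, 1.35 and 5.39 CPM against 0, 0.244 and 0 CPM, with at most 0.244 CPM in an endoderm-poor library. Dhh, the ligand of Schwann and Sertoli cells, read 0.148, 2.31 and 1.27 CPM against 1.81, 0 and 0.555 CPM, a difference of 0.47 ± 0.89. Ptch1, the receptor that is itself a target of the pathway, read 41.2, 33.5 and 26.6 CPM against 16.1, 8.42 and 10.3 CPM, and was apart by 1.53 ± 0.32. Gli1, a transcription factor and target of the pathway, read 5.18, 1.77 and 1.02 CPM against 1.81, 0.139 and 0.914 CPM and overlapped. Smo, the signal transducer, and the coreceptors Gas1 and Boc were apart and lower. Gas1 read 15.0, 49.0 and 31.3 CPM against 231, 336 and 203 CPM, a difference of -3.11 ± 0.53, and Boc read 3.11, 16.9 and 15.2 CPM against 37.7, 67.9 and 40.3 CPM. In all, 3 of 11 genes were higher and 3 lower, with a median difference of 0.47 that was -0.08 without ventricle-like 1 and whose sign changed in 2 of 16 alternatives, and under scaling to cardiomyocyte genes 1 was higher and 2 lower.

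Mesoderm around the gut and signals from endoderm to the heart did not follow as groups. Of 9 filtered visceral mesoderm genes (10 listed) 0 were apart and higher and 1 lower, and Foxf1, a Hedgehog-responsive factor of gut mesenchyme, read 109, 57.4 and 21.7 CPM against 38.7, 21.8 and 42.0 CPM. Hlx, a homeobox factor of visceral mesenchyme, was the lower gene at 6.56, 3.84 and 1.30 CPM against 39.9, 33.8 and 18.9 CPM. Without ventricle-like 3, 2 visceral mesoderm genes were higher, and without atrium-like 1, atrium-like 3 or ventricle-like 1, 2 were lower. Among 11 filtered signal genes (14 listed) 1 was higher and 3 lower, the list's median difference being 0.50 and its mean lower in the endoderm-rich set, at 3.32 against 3.39. Its median was 0.13 without atrium-like 1, and 2 genes were higher and 2 lower without that library or without ventricle-like 1. Bmp2, a signal that induces cardiac fate, read 88.2, 86.6 and 35.6 CPM against 68.6, 43.5 and 31.9 CPM and overlapped. Bmp7, a relative of it, was the higher gene at 45.1, 16.5 and 46.7 CPM against 6.98, 10.8 and 6.27 CPM. Wnt11, a cardiogenic Wnt ligand, read 7.89, 26.9 and 28.0 CPM against 34.0, 123 and 28.5 CPM and was lower with Dkk1 and Igf1. Igf1, a growth factor of mesenchyme and macrophages, had the largest of these differences at -3.05 ± 0.25, with 18.7, 17.2 and 12.2 CPM against 170.4, 114 and 126 CPM.

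Cardiomyocyte genes did not go with endoderm content. Of 16 genes, 0 were apart in either direction, and the median difference was -0.20. The list mean was 5.01 in atrium-like 1, 6.66 in atrium-like 3 and 8.40 in ventricle-like 3, against 6.30, 7.32 and 6.77 in the endoderm-poor libraries, so the endoderm-rich set held both the lowest and the highest library. Tnnt2, cardiac troponin T, read 54.2, 212 and 695 CPM against 136, 311 and 219 CPM. Myh6, the alpha myosin heavy chain, read 248, 748 and 2899 CPM against 559.7, 1409 and 757 CPM. Ttn, the sarcomere spring titin, read 197, 737 and 1083 CPM against 351, 527 and 295 CPM. Each showed the same order, with atrium-like 1 lowest and ventricle-like 3 highest. The direction rested on single libraries, since the median difference was 0.66 without atrium-like 1, with 2 genes apart and higher, and -0.996 without ventricle-like 3, with 6 genes apart and lower. All 16 genes were lower in the organoids than in the E11.5 hearts by edgeR's quasi-likelihood test, with hearts at list means of 9.50 to 10.26.

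Chamber genes were near the background too. Of 12 atrial genes 1 was apart and higher and 2 lower, and of 12 ventricular genes 1 was higher and 1 lower. Without ventricle-like 3, 6 atrial and 3 ventricular genes were lower, and 3 ventricular genes were higher without atrium-like 1 and 2 without ventricle-like 2. Stard10, a lipid transfer protein, was the higher atrial gene at 165, 127 and 149 CPM against 48.9, 53.4 and 17.0 CPM, a difference of 2.03 ± 0.53. Gja5, the connexin of atria and conduction tissue, was lower at 0.0493, 0.0384 and 3.35 CPM against 4.32, 4.32 and 5.39 CPM. Gja1, the main ventricular connexin, also made by mesenchyme, read 55.7, 206 and 159.9 CPM against 369, 374 and 399 CPM. Myl7 and Myl2, the atrial and ventricular regulatory light chains, overlapped, with 95.6, 307 and 1076 CPM against 191, 964 and 292 CPM and 3.06, 17.0 and 192 CPM against 23.1, 53.2 and 32.3 CPM. Of 4 genes looked at whatever their level, Gstm6, a glutathione transferase, was apart and higher at 57.5, 17.1 and 18.3 CPM against 15.2, 5.57 and 5.71 CPM. Slc7a7, an amino acid transporter of gut and kidney whose locus overlaps Oxa1l on the other strand in a count whose use of strand is not stated, read 149.98, 66.5 and 31.1 CPM against 33.1, 9.26 and 6.10 CPM and missed being apart because atrium-like 2 exceeded ventricle-like 3. B3gnt3, a glycosyltransferase of epithelia, read 35.1, 38.6 and 8.85 CPM against 46.8, 3.17 and 4.18 CPM, and Cxcl16, a chemokine, read 59.7, 41.8 and 20.3 CPM against 40.2, 28.3 and 14.7 CPM, both overlapping.

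**Figure D3:**
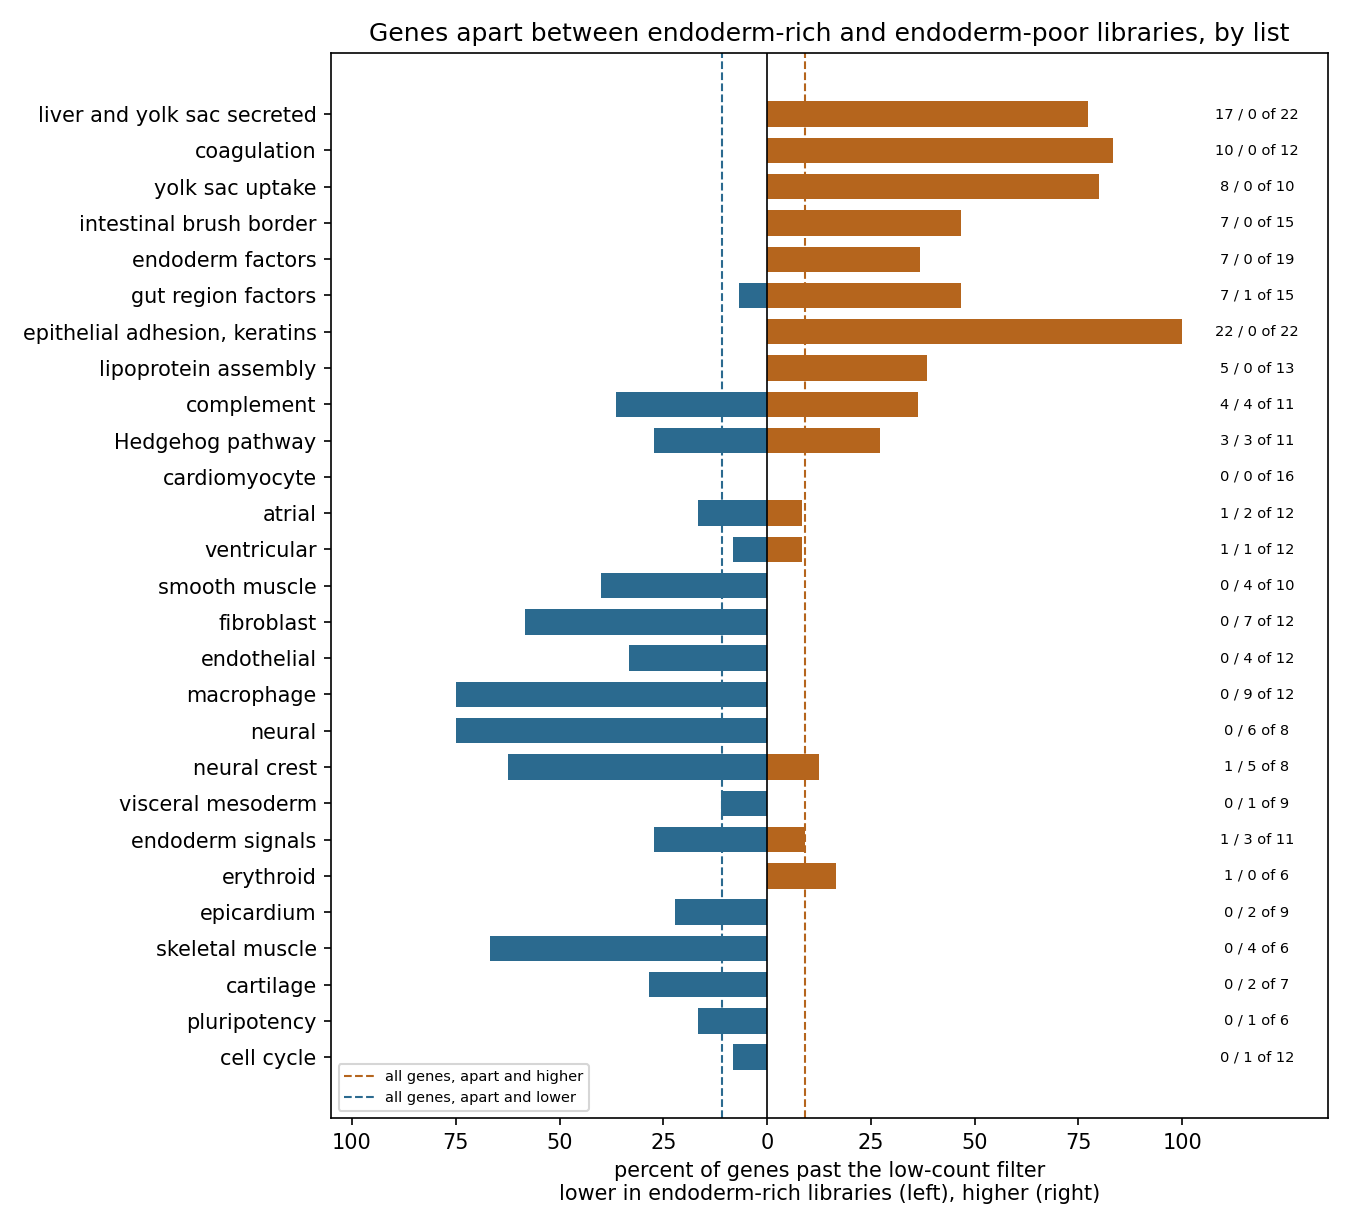
Percent of the filtered genes of each list that were apart and higher (brown, right) or apart and lower (blue, left) in the endoderm-rich libraries; dashed lines mark the 9.04% and 10.8% over all genes, and the numbers give higher / lower of filtered genes. Bars of secreted, coagulation, uptake and epithelial genes pass the line on the right, those of fibroblast, macrophage, neural and skeletal muscle genes pass the line on the left, and the cardiomyocyte list has no bar.

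The genes that were lower in the endoderm-rich libraries were led by neuronal ones. Htr3a (chromosome 9, 48899213 to 48911099), a subunit of the serotonin-gated ion channel of peripheral neurons, had no count in any endoderm-rich library and 46.1, 36.8 and 116 CPM in the endoderm-poor libraries, which is at least 448-fold higher on a floor of 3 counts per library. Vip, the neuropeptide vasoactive intestinal peptide, read 0, 0 and 0.212 CPM against 61.9, 24.7 and 104 CPM. Tlx2, a homeobox factor of enteric and other peripheral neurons, read 0, 0.269 and 0.388 CPM against 28.0, 15.5 and 59.8 CPM. In all 3 genes ventricle-like 2 was the highest library and ventricle-like 1 the lowest of the endoderm-poor set. Stmn3, a microtubule regulator of neurons, read 0, 0 and 0.0705 CPM against 12.8, 20.7 and 169 CPM, its endoderm-rich values resting on 2 counts in all. Crmp1, a protein of axon guidance, read 1.23, 0.154 and 0.282 CPM against 27.4, 24.7 and 205 CPM, and Syt4, a synaptotagmin of neurons, read 0, 0.154 and 0.106 CPM against 12.7, 10.96 and 114 CPM. Slpi, a secreted protease inhibitor of epithelia and phagocytes, and Col9a3, a cartilage collagen chain, complete the 8 largest, at 0, 0.846 and 1.48 CPM against 65.6, 23.2 and 179 CPM and 0, 13.95 and 5.85 CPM against 174, 137 and 220.1 CPM.

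**Figure D4:**
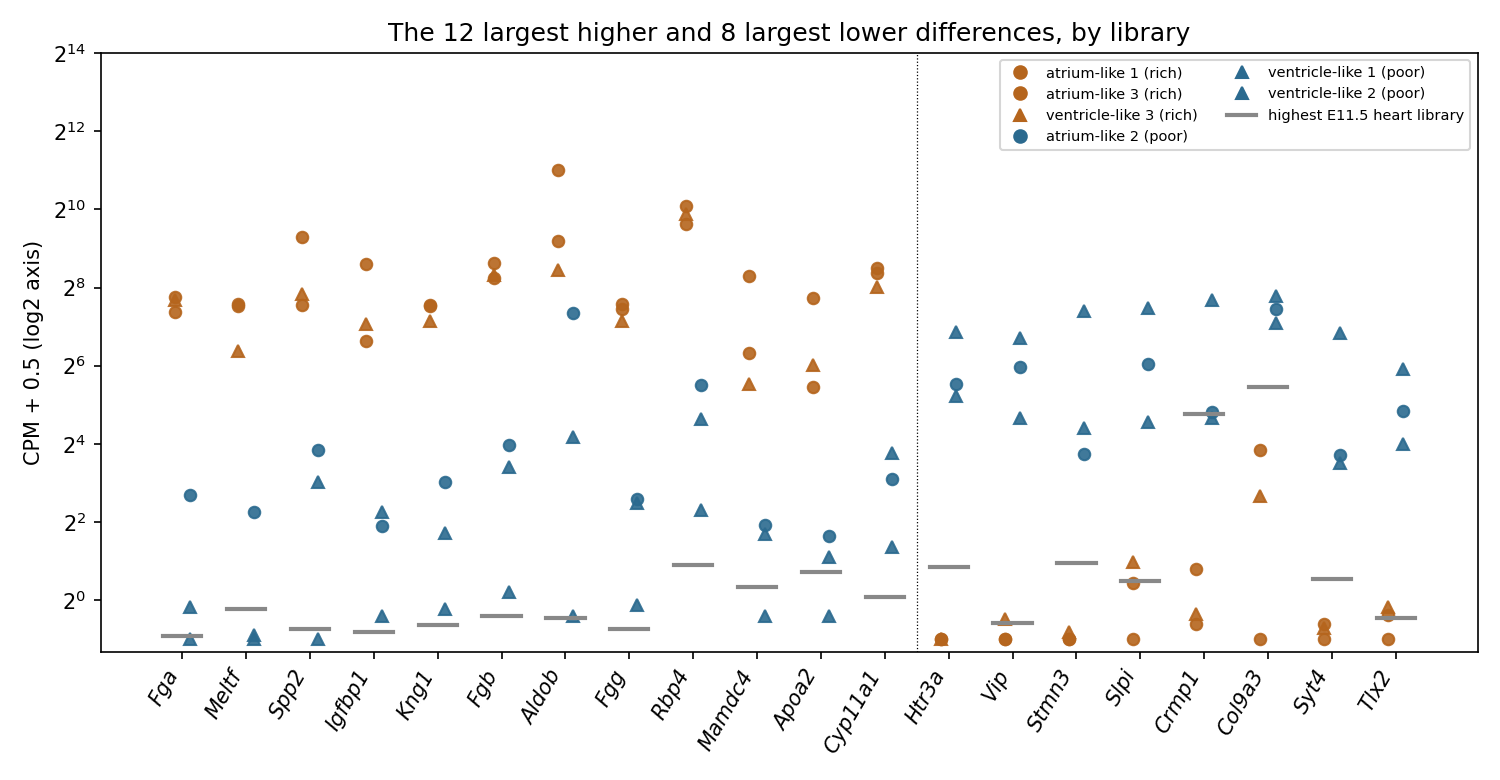
CPM + 0.5 on a log2 axis for the 12 genes with the largest upward and the 8 with the largest downward difference, in each organoid library (brown endoderm-rich, blue endoderm-poor, circles atrium-like, triangles ventricle-like); the grey line is the highest E11.5 heart library. Left of the dotted line brown points stand above blue ones, right of it the order is turned, and the highest heart library lies at or below 1.37 CPM for all genes but Stmn3, Crmp1 and Col9a3.

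As a list, 6 of 8 filtered neural genes (12 listed) were apart and lower and 0 higher, with a median difference of -3.64. Some members passed the filter through the endoderm-poor libraries alone, among them Dcx at 0, 0.0769 and 0.0353 CPM against 6.88, 5.22 and 111 CPM. Tubb3, the neuronal tubulin, read 0.740, 3.34 and 7.72 CPM against 83.3, 81.0 and 256 CPM, and Stmn2, a growth cone protein, read 1.33, 2.27 and 1.38 CPM against 37.1, 50.4 and 262 CPM. Sox1, Pax6 and Neurog2, factors of the central nervous system, did not pass the filter. The summed level of the 12 genes was 39.6 to 109 CPM in the endoderm-rich libraries, 219.5 to 916 CPM in the endoderm-poor libraries and 128 to 165.5 CPM in the hearts. In the endoderm-rich libraries and the hearts most of this sum was Nes, which per the paper is made by both brain and fetal heart. Nes read 106, 27.1 and 34.6 CPM against 124, 61.2 and 142 CPM, with 99.7 to 137 CPM in the hearts, and overlapped (-1.14 ± 0.71). Of 8 filtered neural crest genes (10 listed) 5 were lower and 1, Erbb3, was higher. Sox10, a factor of crest and glia, was at 0 in all 3 endoderm-rich libraries and at 7.81, 0.418 and 1.24 CPM in the endoderm-poor ones.

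Macrophage genes were lower in the endoderm-rich libraries. Of 12 genes 9 were apart and lower and 0 higher, with a median difference of -2.57 (1 lower under scaling to cardiomyocyte genes). Lyz2, lysozyme of myeloid cells, read 33.3, 18.4 and 48.4 CPM against 517, 253 and 391 CPM. C1qb, a chain of complement C1q made by macrophages, read 44.8, 2.73 and 7.40 CPM against 165, 72.7 and 109 CPM. Adgre1, the macrophage marker F4/80, read 11.2, 0.653 and 2.54 CPM against 46.8, 32.5 and 57.8 CPM. Csf1r, the receptor that macrophages need for survival, was an exception with 176, 75.6 and 46.7 CPM against 57.9, 56.7 and 57.9 CPM, overlapping and highest in atrium-like 1. The summed level of the list was 174 to 477 CPM in the endoderm-rich libraries, 706 to 1271 CPM in the endoderm-poor libraries and 78.3 to 145 CPM in the hearts.

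Fibroblast and matrix genes were lower too. Of 12 genes 7 were apart and lower and 0 higher, with a median difference of -1.90 (1 lower under scaling to cardiomyocyte genes). Col1a1 and Col1a2, the chains of type I collagen, read 1147, 1307 and 596 CPM against 3387, 6457 and 2223 CPM and 1258, 1111 and 501 CPM against 3394, 10921 and 2116 CPM. Dcn, the proteoglycan decorin, read 171, 285 and 144 CPM against 812, 1136 and 539 CPM. Pdgfra, a growth factor receptor of mesenchyme, read 23.2, 72.1 and 18.2 CPM against 280.0, 205 and 95.1 CPM. Smooth muscle genes gave 4 of 10 lower and 0 higher (1 lower under scaling to cardiomyocyte genes), and Acta2, smooth muscle actin, read 183, 284 and 342 CPM against 659, 739 and 818 CPM. In these genes each endoderm-poor library exceeded each endoderm-rich one, and the list means of both groups did so as well.

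Endothelial genes were lower on the whole but unevenly. Of 12 genes 4 were apart and lower and 0 higher, with a median difference of -2.22, and without ventricle-like 1 there were 9, whereas scaling to cardiomyocyte genes left 1. Plvap, a protein of fenestrated endothelium, read 0.296, 1.15 and 0.247 CPM against 36.9, 1.29 and 15.9 CPM, and Pecam1, an adhesion molecule of endothelium, read 2.91, 2.73 and 1.30 CPM against 46.1, 1.71 and 21.1 CPM and overlapped. Kdr, with the largest difference of the list at -3.39 ± 1.16, was instead highest in ventricle-like 1. It read 1.33, 9.46 and 3.24 CPM against 22.6, 153 and 21.8 CPM, and 95.8 to 182 CPM in the hearts. The list mean was 4.88 in atrium-like 2 and 4.44 in ventricle-like 2 but 2.37 in ventricle-like 1, close to the 1.76 to 2.49 of the endoderm-rich libraries, and the hearts lay at 6.26 to 6.50. Skeletal muscle genes divided the endoderm-poor set in the same way. Of 6 filtered genes (12 listed) 4 were apart and lower (2 under scaling to cardiomyocyte genes), and Myog, a factor of muscle differentiation that did not pass the filter, read 0, 0.0769 and 0 CPM against 48.0, 0 and 47.3 CPM. Myod1, the muscle determination factor, read 0, 0 and 0 CPM against 21.2, 0 and 38.2 CPM, so atrium-like 2 and ventricle-like 2 held these transcripts and the other 4 libraries did not beyond 3 counts.

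Complement genes went both ways. Of 11 filtered genes (13 listed) 4 were apart and higher and 4 lower, with a median difference of -1.20 that ran from -1.59 to -0.60 with 1 library left out, -0.60 being without atrium-like 1, whereas the list mean was higher in the endoderm-rich set, at 3.46 against 3.16, and under scaling to cardiomyocyte genes 1 was higher and 0 lower. Higher were C2, C9, Cfb and Cfi, of which Cfb, complement factor B, read 151, 76.3 and 37.6 CPM against 19.1, 3.17 and 1.24 CPM. Among the lower were C1ra, C1s1 and C4b, of which C4b, complement component 4, read 6.96, 2.27 and 1.02 CPM against 11.6, 25.2 and 10.2 CPM. All 3 have close copies in the mouse genome that may share reads with them. Cfi, the protease factor I, read 106, 46.0 and 45.9 CPM against 6.46, 26.2 and 1.73 CPM, with ventricle-like 1 the nearest of the endoderm-poor libraries.

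The remaining lists were mixed. Of 9 filtered epicardial genes (10 listed) 2 were lower and 0 higher, and Wt1, the epicardial factor, read 0.987, 2.27 and 2.93 CPM against 7.97, 58.4 and 4.57 CPM. The list did not move as a whole, with differences above 0 for 3 genes and below 0 for 6. Msln, Upk3b and Upk1b, abundant members of the list, differed upward by 3.37 ± 1.71, 2.17 ± 2.06 and 1.63 ± 1.78. The sets overlapped for each of them, whereas Gpm6a was apart and lower at -5.32 ± 1.39. Of 7 filtered cartilage genes (10 listed) 2 were lower. Of 6 filtered erythroid genes (12 listed) 1 was higher, Hba-a1 at 16.9, 4.65 and 4.796 CPM against 0.395, 1.95 and 4.28 CPM, against up to 12677 CPM in the hearts. Of 6 filtered pluripotency genes (12 listed) 1 was lower, and Pou5f1 and Nanog did not pass the filter. Of 12 cell cycle genes 1 was lower, Mcm5 at 16.3, 29.8 and 27.3 CPM against 73.6, 50.3 and 37.4 CPM, with a list median of -0.58, or -0.28 without atrium-like 1. These small counts moved with single libraries. Without ventricle-like 1, 5 cartilage genes were lower, 3 epicardial genes higher and 0 pluripotency genes apart. Without atrium-like 3 or without ventricle-like 3, 4 cartilage genes were lower. Without atrium-like 2, 3 pluripotency genes were higher. Over the leave-outs, 0 to 3 cell cycle genes and 2 to 3 epicardial genes were lower.

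The labels themselves allow a test of organoids against E11.5 hearts, with chamber as a term, and it places these genes beside the tissue that the organoids model. Of 16494 genes tested by edgeR's quasi-likelihood test, with calls at 0.05 after Benjamini-Hochberg adjustment and beyond 1 on the log2 scale, 3231 (19.6%) were higher and 1599 (9.69%) lower in the organoids. The labels do not say that replicates came from separate cultures or litters, so these p-values measure the spread between the samples as deposited. Of the 1419 genes apart and higher in the endoderm-rich libraries, 909 (64.1%) were higher in the organoids and 30 lower, and 431 stayed under 1 CPM in every heart. Of the 1699 apart and lower, 466 (27.4%) were higher in the organoids and 156 (9.18%) lower. The same 6 organoid libraries enter the split and this test, so the counts are a description and not independent evidence.

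With the endoderm-rich libraries left out, 3037 of all 17509 genes tested were higher in the organoids and 1548 lower. With the endoderm-poor libraries left out, 3297 of 17348 were higher and 2356 lower. Of the secreted list, 22 of 22 tested genes were higher in organoids than in hearts, and with the 3 endoderm-rich libraries left out 15 of 19 still were. Of the brush border list 13 of 16 were higher, and 12 of 16 without the endoderm-rich libraries. All 22 epithelial genes were higher, and 20 without them. Epcam reached at most 1.19 CPM in a heart (adjusted p = 9.82e-05), and Cdh1 at most 0.145 CPM (adjusted p = 2.64e-05). Among genes lower in the endoderm-rich libraries, 10 of 12 macrophage genes were higher in the organoids than in the hearts. With the endoderm-rich libraries left out the count was 12. With the endoderm-poor libraries left out it was 3, near the share of all genes that were higher in that setting. Lyz2 reached at most 62.0 CPM in a heart (adjusted p = 0.0117), below each endoderm-poor library. Of the fibroblast genes 6 of 12 were higher and 1 lower, which became 8 and 1 without the endoderm-rich libraries and 2 and 4 without the endoderm-poor libraries. Of the cardiomyocyte genes all 16 were lower with the endoderm-rich libraries left out and 15 with the endoderm-poor libraries left out.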

How the data were processed

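RNA of 12 samples was sequenced in bulk. Per the labels and methods, the authors dissected and froze the tissue, extracted RNA, prepared libraries and aligned reads to mm10 with STAR; the version, counting tool, annotation, use of strand and depth before counting are not given in the sources used here. The labels and the methods name different library kits. The deposited table gives, for each of 26190 genes and each library, an estimated count, of which 23.8% of values were not whole and were rounded for all steps. The FPKM columns, deposited beside the counts by the authors, were read but no value of them is printed.

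The libraries were split by the unscaled CPM sum of 5 genes. All other values are CPM scaled by edgeR's TMM over all 12 libraries (factors 0.846 to 1.1), with a pseudocount of 0.5 on the log2 scale, which understates differences of low genes. The filter was filterByExpr with a minimum count of 10 over the organoid libraries. A gene nearly absent from either set could pass through the other set alone, so shares among filtered genes favour genes that are apart. This holds for the lists and for the share over all genes. A zero allows up to 3 counts, which is 0.0982 to 0.125 CPM before scaling, for counting error only. Organoids and hearts were compared with edgeR 4.0.16 (R 4.3.3; glmQLFit, chamber as a term, Benjamini-Hochberg over 16494 genes); DESeq2 1.42.0 was an alternative. The edgeR comparison was also run on simulated data. The named genes are the 12 largest upward and 8 largest downward differences whose higher set averaged 10 CPM or more, the members of 27 lists with up to 4 per list by level, endoderm factors and Hedgehog genes, and 4 single genes; further list members shown were chosen after their values were seen. The members and lists were chosen with earlier results of these data known. Some genes of the lists are not reported here by name.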

Additional observations from a re-analysis of the deposited data

Results flagged for a closer look

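For 2 lists the difference between endoderm-rich and endoderm-poor libraries went in opposite directions in the 2 parts of the organoid, without overlap inside a part. Atrium-like 2 was the only endoderm-poor library of its part, and ventricle-like 3 the only endoderm-rich library of its part. Each part's direction therefore rested on that library. The difference between the parts was not tested, and each part holds only 3 libraries. The mean log2 level of the Hedgehog list was lower in the endoderm-rich libraries within the atrium-like part, by -0.232, and higher within the ventricle-like part, by 0.385. The mean level of the erythroid list was higher within the atrium-like part, by 0.524, and lower within the ventricle-like part, by -0.211, in a list whose summed level did not exceed 22.4 CPM in any organoid library.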

How the results depend on the processing

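Scaling the libraries to equal cardiomyocyte levels gave 266 genes apart and higher and 948 apart and lower in place of 1419 and 1699, and a filter of at least 5 CPM in 3 libraries gave 1052 lower, on fewer genes tested. The other alternatives kept both counts within 1.5 times; without TMM, 1219 were higher and 1982 lower, and the median difference of all genes went from -0.03 to -0.17. Leaving out 1 library at a time gave 1417 to 1874 higher and 1737 to 2276 lower, sets of fewer libraries being easier to separate. TMM over the organoid libraries alone, chosen after seeing the data, gave 1420 and 1714. The list medians kept their sign in all 16 alternatives for 22 of 28 lists; the exceptions were the Hedgehog, cardiomyocyte, ventricular, erythroid, epicardium and pluripotency lists, and no erythroid gene passed the 5 CPM filter. For organoids against hearts, 2944 to 3285 genes were higher and 1472 to 1733 lower with 1 library left out. DESeq2's Wald test gave 3520 and 1674. A replicate block on the number in the labels gave 2877 and 1698. With the block the macrophage genes higher in organoids went from 10 to 5 of 12 and the autonomic and enteric genes from 10 to 6 of 18, while the secreted, brush border, epithelial, fibroblast and cardiomyocyte counts stayed within 1.5 times. For the pairing, the same-number correlations of the organoid samples, on deviations from each part's mean, were -0.053, 0.626 and 0.399. Atrium-like 2 and atrium-like 3 each correlated best with the ventricle-like part of the same number, whereas atrium-like 1 correlated best with ventricle-like 3 (0.503). These values do not settle whether the numbers pair the samples, and the labels do not say. With 3 libraries a set and a split chosen from the data, no p-value can be given for the split, and library preparation, organoid of origin and endoderm content cannot be told apart.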

Other observations

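The neuronal genes lower in the endoderm-rich libraries included many of autonomic and enteric neurons, and a list of 18 such genes was drawn up after their values were seen, so its counts are a description only. Of 17 that passed the filter, 15 were apart and lower and 0 higher, with a median log2 difference of -3.03, or -3.21 with 3 genes at 0 in one set placed at their bound of 3 counts per library. Its summed level was 33.8 to 37.6 CPM in the endoderm-rich libraries, 204 to 696 CPM in the endoderm-poor libraries and 41.2 to 64.8 CPM in the hearts. Ret, the receptor for GDNF that enteric neurons depend on, read 22.5, 8.69 and 5.61 CPM in the endoderm-rich libraries and 45.7, 24.3 and 66.1 CPM in the endoderm-poor libraries. Slc18a3, the vesicular acetylcholine transporter, was at 0 in every endoderm-rich library and every heart and at 10.3, 7.62 and 26.0 CPM in the endoderm-poor libraries. Prph, the peripheral neuron filament peripherin, read 1.83, 3.88 and 9.20 CPM against 40.9, 33.0 and 134.6 CPM, against at most 0.166 CPM in a heart (edgeR adjusted p = 1.44e-04 for organoids against hearts). Against the hearts 10 of the 18 genes were higher in the organoids and 1 lower. With the endoderm-rich libraries left out 12 were higher and 0 lower. With the endoderm-poor libraries left out 3 of 15 were higher and 4 lower, beside 3297 higher and 2356 lower of all 17348 genes in that setting.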
